A study of Mus musculus with 8 samples.

Results

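The 39 genes of mucin-type O-glycosylation and sialylation described here are 11 initiating Galnt enzymes, 2 genes of core 1 synthesis, 3 branching enzymes, 6 chain extension enzymes, 7 sialyltransferases, 5 genes of fucosylation, GalNAc capping and sulfation, and 5 genes of sugar donor supply and transport, out of 53801 genes counted. They were chosen by gene symbol. The symbols of 37 were found in the deposited signal table and joined by Ensembl identifier to the counts, and *Galnt2* and *Galnt18*, which that table does not list, were found in the counts through a reference list of symbols. Messenger RNA was sequenced from small pools of sorted Lgr5-GFP+ intestinal cells of 8 mice, 4 labelled β-catGOF; Mll1-/- and 4 labelled β-catGOF; Mll1+/-, the second being the control. All mice carry the gain-of-function allele of β-catenin, so no library with unmutated β-catenin was analysed, and all mice were 4 to 6 weeks old when tamoxifen was injected at 50 mg/kg on 3 consecutive days, with sorting 10 days after induction. The mutations were induced by the CreERT2 of the Lgr5-EGFP-IRES-CreERT2 allele, which also carries the GFP used for the sort. Cells were stained for EpCAM, CD45 and CD24. Recombination was not measured in these libraries.

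Mucins are proteins whose threonine and serine residues carry dense O-linked sugar chains, and these chains give intestinal mucus its gel-like and protective properties. A GalNAc-transferase of the Galnt family adds the first sugar, C1galt1 and its chaperone C1galt1c1 build core 1, Gcnt enzymes branch it, galactosyl- and N-acetylglucosaminyltransferases lengthen it, and sialyl-, fucosyl- and sulfotransferases cap it in the Golgi. The sialic acid comes from a route that includes Gne, Nans and Cmas, and Slc35a1 carries the activated sugar into the Golgi. Goblet cells use this pathway heavily, and many of its enzymes also act in other epithelial cells.

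Depth lay between 14468751 and 16847793 counts on genes per library, and values are in CPM, which here means counts scaled to a library total corrected with TMM factors. Depending on the library, 3 counts correspond to 0.162 to 0.241 CPM. In bulk samples, fewer cells of a type and less RNA per cell cannot be told apart. *Kmt2a*, which encodes Mll1, was at 63.5 ± 10.7 CPM in the Mll1-/- libraries and 53.8 ± 7.45 CPM in the Mll1+/- libraries (SD, n = 4 each), with a log2 fold change of 0.24 (SE 0.17, unadjusted p = 0.18, adjusted p = 0.71, edgeR), and no decrease of its count was seen with the Mll1-/- label. Counts over the whole gene cannot show the loss of single exons. The genotypes are therefore given as labelled, and "Mll1-/-" below means the libraries with that label. Library numbers form 2 runs, each with 2 libraries of each genotype: run 1 holds J_7075 and J_7096 (Mll1-/-) with J_7079 and J_7100 (Mll1+/-), and run 2 holds J_7135 and J_7136 (Mll1-/-) with J_7134 and J_7139 (Mll1+/-). J_7135 lay apart from all others (highest Spearman correlation with another library 0.909). The Lgr5 stem cell markers were present in every library, with a summed level of 12189 to 18616 CPM in the Mll1-/- libraries and 24247 to 28992 CPM in the Mll1+/- libraries. *Olfm4* alone made up most of this sum in every library, at 8080.3 to 14429 CPM in the Mll1-/- libraries and 19281 to 22949 CPM in the Mll1+/- libraries, and over the 11 markers 4 log2 fold changes were above 0 and 7 below, with a median of -0.06. Of the 11, 1 was higher and 2 were lower in Mll1-/- at an unadjusted p under 0.05 (edgeR), against 9.15% of all genes tested in either direction.

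A filter on low counts (at least 10 counts in enough libraries) kept 32 of the 39 members. The other 7 (*Galnt2*, *Galnt18*, *Gcnt1*, *St6galnac1*, *St6galnac4*, *St6galnac6* and *Fut2*) had counts too low to test. Of the 32, 0 had an adjusted p under 0.1 in edgeR's quasi-likelihood test with Benjamini-Hochberg adjustment over 16445 genes, where 14 genes, or 0.0851%, passed. The DESeq2 Wald test called 1 member, *B3gnt7*, beside 406 of all 16445 genes. The limma-voom fit with quality weights called 1, *St3gal6*, beside 103 of all 16445 genes. An unadjusted p under 0.05 was reached by 6 members, against 9.15% of all genes tested; 5 of them were higher in Mll1-/- (background 5.4%) and 1 was lower (background 3.75%). These were *B3gnt7*, *Gcnt3*, *B4galt5*, *Cmas*, *Gne* and, in the lower direction, *St3gal6*. In 4 members every Mll1-/- library lay above every Mll1+/- library, which 6.28% of all genes showed in either direction. One of the 4, *B3gnt7*, had at most 9 counts in each Mll1+/- library and so passed the filter only through the Mll1-/- libraries. Another of the 4, *Gcnt3*, had 9 counts in J_7134 and 25 to 103 in the other Mll1+/- libraries. The Mll1+/- libraries alone did not meet the filter for *Gcnt3* either. The same was true of *Chst4*, with 6 counts in J_7139, and *Galnt5*, with 4 counts in J_7134. *B3gnt5* and *Gcnt4* met the filter in neither genotype alone. For *St3gal4*, with 0 counts in J_7135, the Mll1-/- libraries alone did not meet it. The median log2 fold change of the 32 tested members was 0.22, and that of all genes was 0.01. Without J_7135 the median of the members was 0.07. The shares of 18.8% at an unadjusted p under 0.05 and 12.5% without overlap rest on 6 and 4 genes, and no member passes the adjustment. Both the 6 and the 4 include *B3gnt7* and *Gcnt3*, which passed the filter only with the Mll1-/- libraries. Neither share is therefore read as a result about the members.

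**Figure D1:**
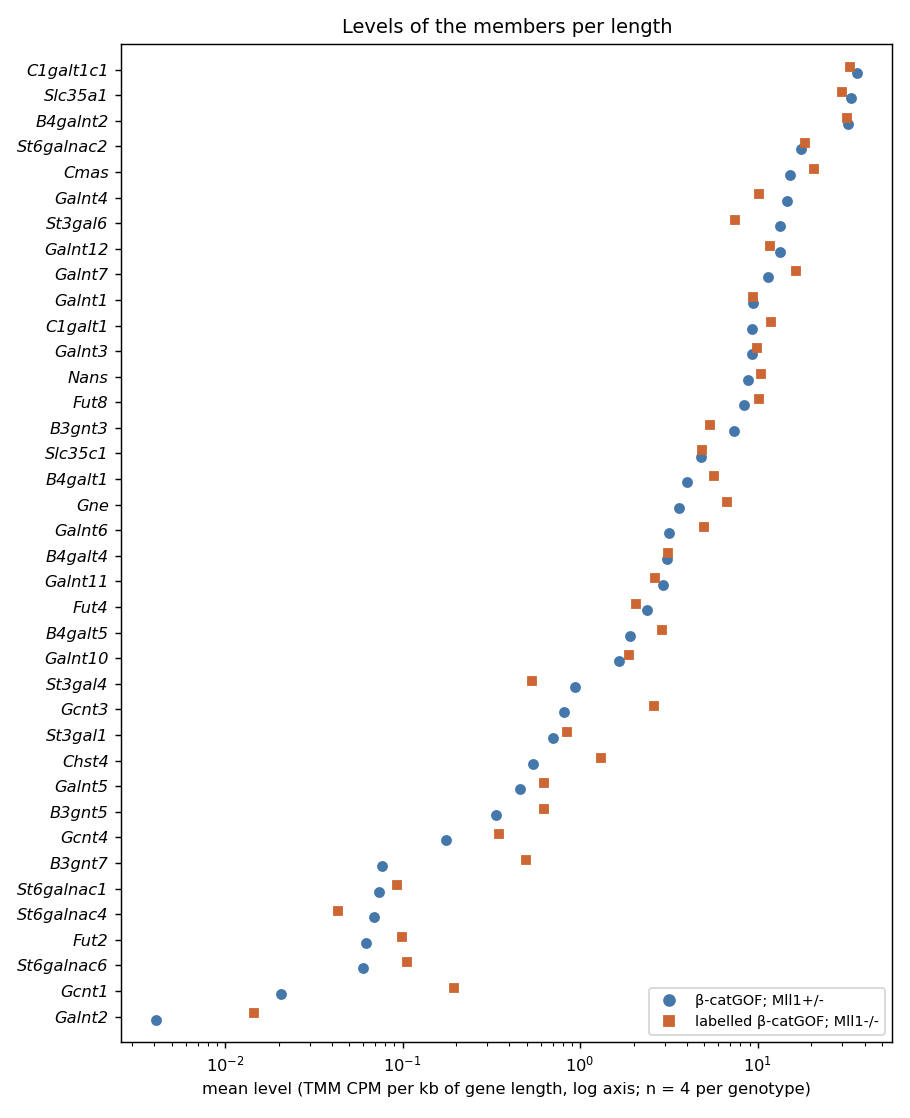
The mean level of 38 members in CPM per kilobase of gene length is plotted on a log axis, with circles for the 4 Mll1+/- libraries and squares for the 4 libraries labelled Mll1-/-. *Galnt18* is not drawn because it is listed at 0 in the Mll1+/- libraries. *C1galt1c1* lies highest at 36.4 CPM per kilobase in Mll1+/- and *Galnt2* lowest. Most exon bases of *Galnt2* are shared with other genes, so its point does not measure its expression.

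Levels between members were compared per kilobase of gene length in the Mll1+/- libraries. The length is that of all annotated exons of a gene, so a gene with rarely used exons is placed low. A gene that shares exon bases with another gene can be placed low too, since reads there were left out. Among tested members the shared part was largest in *Nans* (29.6%), *St3gal6* (26.0%), *B4galnt2* (15.3%), *St6galnac2* (15.2%), *St3gal4* (14.1%) and *B3gnt7* (12.6%). The level was at least 10 CPM per kilobase in 9 members, between 1 and 10 in 15 and below 1 in 15. *Galnt2* is among those below 1, but it shares 90.0% of its exon bases, so its count does not measure its expression. *C1galt1c1*, the chaperone of the core 1 enzyme, was highest with 36.4 ± 3.05 CPM per kilobase (SD, n = 4). *Slc35a1*, the Golgi transporter for activated sialic acid, followed with 33.5 ± 3.07, and *B4galnt2*, which adds a capping GalNAc, with 32.1 ± 6.76, and these 3 did not differ beyond their spread. *St6galnac2*, a sialyltransferase, was at 17.6 ± 2.42, *Cmas* at 15.3 ± 1.21 and *Galnt4* at 14.7 ± 4.42 CPM per kilobase. *Gcnt3*, a branching enzyme of mucin-producing epithelium, was at 0.806 ± 0.613 and *B3gnt7*, an extending N-acetylglucosaminyltransferase, at 0.0763 ± 0.0445 CPM per kilobase, so the 2 members with the largest log2 fold changes were among the low ones.

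*B3gnt7* (ENSMUSG00000079445, chromosome 1 from 86302832 to 86307305, mm10) had 2.95 CPM in J_7075, 1.10 in J_7096, 3.14 in J_7135 and 0.985 in J_7136 among the Mll1-/- libraries. *B3gnt7* stood at 0.239 CPM in J_7079, 0.281 in J_7100, 0.160 in J_7134 and 0.581 in J_7139 among the Mll1+/- libraries. The Mll1+/- values rest on 2 to 9 counts and the Mll1-/- values on 15 to 58 counts, and all 4 Mll1-/- libraries lay above all 4 Mll1+/- libraries, J_7075 and J_7135 by most. The means were 2.04 ± 1.16 CPM in the Mll1-/- libraries and 0.316 ± 0.184 CPM in the Mll1+/- libraries (SD, n = 4 each), with a log2 fold change of 2.66 (SE 0.65, unadjusted p = 0.00236, adjusted p = 0.249, edgeR). Its adjusted p was 0.0406 in DESeq2. Within the runs, the difference in log2 CPM (prior count of 2) was 2.33 in run 1 and 2.08 in run 2.

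*Gcnt3*, which builds core 2 and core 4 branches (ENSMUSG00000032226, chromosome 9 from 70031496 to 70038088), had 10.3 CPM in J_7075, 13.3 in J_7096, 12.9 in J_7135 and 8.28 in J_7136 among the Mll1-/- libraries. *Gcnt3* stood at 6.16 CPM in J_7079, 1.76 in J_7100, 0.722 in J_7134 and 5.23 in J_7139 among the Mll1+/- libraries. The lowest Mll1-/- value lay above the highest Mll1+/- value, and the Mll1+/- libraries varied among themselves by more than the Mll1-/- libraries did relative to their mean. The mean was 11.2 ± 2.34 CPM in the Mll1-/- libraries and 3.47 ± 2.64 CPM in the Mll1+/- libraries (SD, n = 4 each), and the test gave a log2 fold change of 1.68 (SE 0.57, unadjusted p = 0.0163, adjusted p = 0.458, edgeR). The differences within the runs were 1.78 in run 1 and 2.29 in run 2.

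The sequences of the promoter windows of the no-overlap members are shown here because every Mll1-/- library lay above every Mll1+/- library in these genes. They come from RefSeq annotation (GRCm38.p6), 250 bases before and 50 bases after the start of transcription, 5′ to 3′ on the gene's own strand, and capitals mark matches to the letters searched. *Gcnt3* has no entry in that table. The *B3gnt7* window lies on chromosome 1 from 86302971 to 86303270, plus strand, that of *B4galt5* on chromosome 2 from 167349129 to 167349428, minus strand and that of *Cmas* on chromosome 6 from 142756436 to 142756735, plus strand.
B3gnt7: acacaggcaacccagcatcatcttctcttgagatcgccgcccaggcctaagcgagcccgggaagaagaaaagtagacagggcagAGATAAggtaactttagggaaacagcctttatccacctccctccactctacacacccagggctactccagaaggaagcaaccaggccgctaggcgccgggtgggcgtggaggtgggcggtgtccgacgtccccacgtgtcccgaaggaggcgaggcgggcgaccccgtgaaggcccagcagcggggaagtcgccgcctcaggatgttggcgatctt
B4galt5: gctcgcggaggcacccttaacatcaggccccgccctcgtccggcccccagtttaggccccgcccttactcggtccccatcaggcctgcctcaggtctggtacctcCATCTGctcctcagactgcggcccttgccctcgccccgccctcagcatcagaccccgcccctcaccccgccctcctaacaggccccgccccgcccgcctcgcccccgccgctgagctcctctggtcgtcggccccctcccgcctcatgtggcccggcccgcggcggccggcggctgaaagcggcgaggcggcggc
Cmas: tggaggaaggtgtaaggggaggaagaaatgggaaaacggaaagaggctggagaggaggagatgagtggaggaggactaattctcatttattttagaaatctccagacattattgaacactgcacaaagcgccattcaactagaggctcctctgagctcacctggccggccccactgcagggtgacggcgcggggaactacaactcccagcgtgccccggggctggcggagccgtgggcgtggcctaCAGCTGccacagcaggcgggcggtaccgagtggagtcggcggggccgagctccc

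Each letter string was searched on both strands in the 38 windows of the 27 members with an entry and in all 32851 windows of the table. The E-box CAGCTG, which reads the same on both strands and is bound by factors such as Atoh1, was in 7 member windows and in 16.3% of all windows, and the *Cmas* window holds it. CAGATG was in 3 member windows and in 17.2% of all, and the *B4galt5* window holds it on the opposite strand. Factors of the Gata family read AGATAA, which was in 4 member windows and in 11.2% of all, and the *B3gnt7* window holds it. The Xbp1 and CREB family motif TGACGTG was in 1 member window and in 2.01% of all. For the Foxa motif TGTTTAC the values were 1 window and 3.65%. For the Tcf/Lef motif CTTTGAT they were 1 window and 3.73%. The 3 printed windows hold 1 match each and share no motif, and a match is no measured binding.

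**Figure D2:**
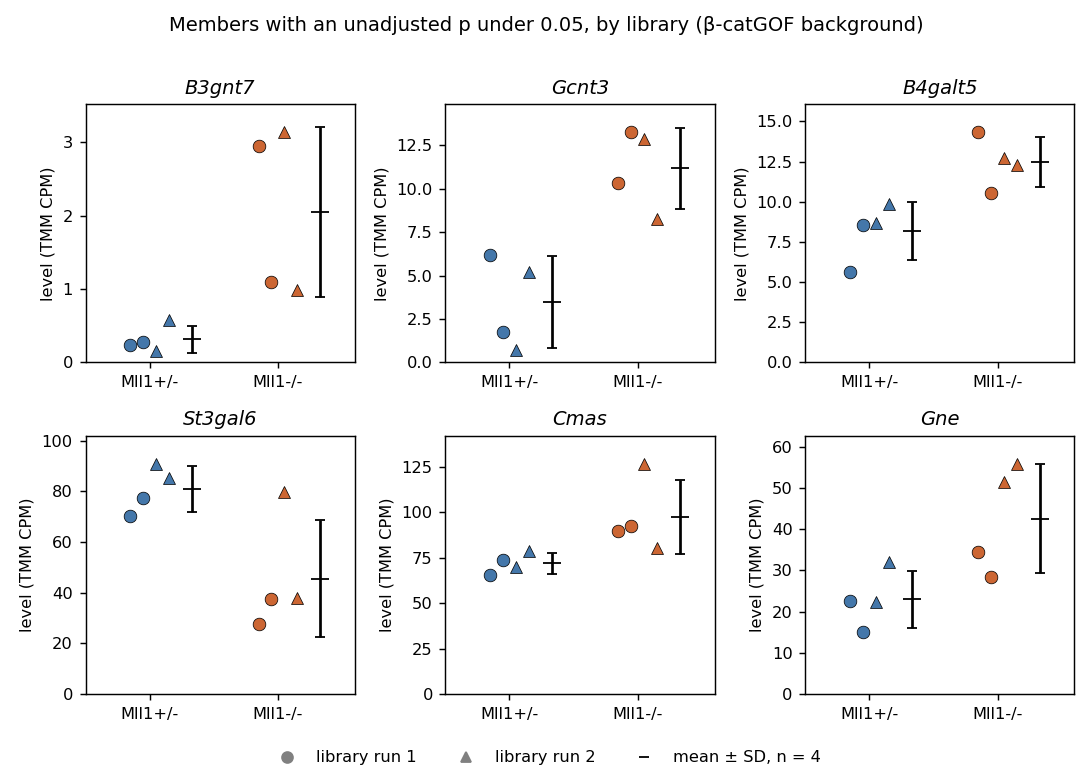
Levels in TMM CPM of the 6 members with an unadjusted p under 0.05 are plotted for every library, with circles for run 1, triangles for run 2, and the mean ± SD of the 4 libraries beside each genotype. *B3gnt7*, *Gcnt3*, *B4galt5* and *Cmas* are higher in every Mll1-/- library than in any Mll1+/- library, *Gne* overlaps, and *St3gal6* is low in 3 Mll1-/- libraries but at 79.6 CPM in J_7135.

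*B4galt5*, a galactosyltransferase that also makes lactosylceramide (ENSMUSG00000017929, chromosome 2 from 167298444 to 167349183), had 14.3 CPM in J_7075, 10.5 in J_7096, 12.7 in J_7135 and 12.3 in J_7136 among the Mll1-/- libraries. *B4galt5* stood at 5.62 CPM in J_7079, 8.58 in J_7100, 8.66 in J_7134 and 9.88 in J_7139 among the Mll1+/- libraries. The groups did not overlap, and J_7079 was the lowest. The mean was 12.5 ± 1.56 CPM in the Mll1-/- libraries and 8.19 ± 1.81 CPM in the Mll1+/- libraries (SD, n = 4 each), with a log2 fold change of 0.61 (SE 0.25, unadjusted p = 0.0347, adjusted p = 0.514, edgeR), and the differences within the runs were 0.81 in run 1 and 0.43 in run 2.

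Of the other chain extension enzymes, *B3gnt3*, which extends core 1 and has the highest level per kilobase of the group, had 8.50 CPM in J_7075, 11.4 in J_7096, 23.1 in J_7135 and 22.8 in J_7136 among the Mll1-/- libraries. *B3gnt3* stood at 22.4 CPM in J_7079, 20.7 in J_7100, 21.2 in J_7134 and 25.6 in J_7139 among the Mll1+/- libraries. The 2 run 1 libraries of Mll1-/- were low, and the 2 of run 2 lay within the Mll1+/- values. The log2 fold change of -0.45 (SE 0.33, unadjusted p = 0.202, adjusted p = 0.729, edgeR) did not pass. *B4galt1*, the lactosamine synthase, was at 12.7 to 41.3 CPM in the Mll1-/- libraries and 10.8 to 20.6 CPM in the Mll1+/- libraries (log2 fold change 0.51), *B4galt4* at 2.56 to 13.7 CPM in the Mll1-/- libraries and 4.33 to 16.7 CPM in the Mll1+/- libraries (0.02), and *B3gnt5*, which acts on glycolipids, at 0 to 6.57 CPM in the Mll1-/- libraries and 0 to 3.74 CPM in the Mll1+/- libraries (0.89), and all 3 overlapped between the genotypes. *Gcnt4*, a branching enzyme, was at 0 to 2.76 CPM in the Mll1-/- libraries and 0.258 to 1.55 CPM in the Mll1+/- libraries (log2 fold change 0.98). *Gcnt1*, the core 2 enzyme, had 22 and 50 counts in J_7075 and J_7096 and at most 4 in each other library, and it was not tested.

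Among the genes that make and load sialic acid, *Gne*, the rate-limiting enzyme of the pathway (ENSMUSG00000028479, chromosome 4 from 44034075 to 44084177), had 34.6 CPM in J_7075, 28.3 in J_7096, 51.4 in J_7135 and 56.0 in J_7136 among the Mll1-/- libraries. *Gne* stood at 22.6 CPM in J_7079, 15.1 in J_7100, 22.3 in J_7134 and 32.0 in J_7139 among the Mll1+/- libraries. The ranges overlapped only between J_7096 and J_7139. The mean was 42.6 ± 13.2 CPM in the Mll1-/- libraries and 23.0 ± 6.93 CPM in the Mll1+/- libraries (SD, n = 4 each), and the test gave a log2 fold change of 0.89 (SE 0.29, unadjusted p = 0.0128, adjusted p = 0.429, edgeR). The differences within the runs were 0.76 in run 1 and 1.00 in run 2. *Cmas*, which activates sialic acid with CMP (ENSMUSG00000030282, chromosome 6 from 142756686 to 142775714), had 90.0 CPM in J_7075, 92.7 in J_7096, 127 in J_7135 and 80.6 in J_7136 among the Mll1-/- libraries. *Cmas* stood at 65.3 CPM in J_7079, 73.8 in J_7100, 69.8 in J_7134 and 78.8 in J_7139 among the Mll1+/- libraries. The groups did not overlap, though J_7136 lay only just above J_7139. The mean was 97.5 ± 20.2 CPM in the Mll1-/- libraries and 71.9 ± 5.72 CPM in the Mll1+/- libraries (SD, n = 4 each), with a log2 fold change of 0.44 (SE 0.16, unadjusted p = 0.0215, adjusted p = 0.481, edgeR), and the differences within the runs were 0.40 in run 1 and 0.45 in run 2. Without J_7135, the log2 fold change of *Cmas* was 0.29. *Nans*, which joins the sialic acid skeleton, was at 37.5 to 61.3 CPM in the Mll1-/- libraries and 37.9 to 45.6 CPM in the Mll1+/- libraries, and its log2 fold change of 0.25 did not pass (unadjusted p = 0.221, adjusted p = 0.74, edgeR). *Slc35a1* had 100.4 CPM in J_7075, 59.5 in J_7096, 66.8 in J_7135 and 46.2 in J_7136 among the Mll1-/- libraries. *Slc35a1* stood at 73.9 CPM in J_7079, 71.4 in J_7100, 75.1 in J_7134 and 87.2 in J_7139 among the Mll1+/- libraries. J_7096, J_7135 and J_7136 lay below every Mll1+/- library and J_7075 lay above every one. The log2 fold change of -0.17 (SE 0.22, unadjusted p = 0.457, adjusted p = 0.86, edgeR) did not pass. *Slc35c1*, the GDP-fucose transporter, was at 12.6 to 19.1 CPM in the Mll1-/- libraries and 10.3 to 20.5 CPM in the Mll1+/- libraries (log2 fold change 0.03).

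*St3gal6*, a sialyltransferase that caps lactosamine (ENSMUSG00000022747, chromosome 16 from 58468125 to 58524243), had 27.5 CPM in J_7075, 37.3 in J_7096, 79.6 in J_7135 and 37.7 in J_7136 among the Mll1-/- libraries. *St3gal6* stood at 70.1 CPM in J_7079, 77.4 in J_7100, 91.0 in J_7134 and 85.4 in J_7139 among the Mll1+/- libraries. In 3 Mll1-/- libraries the level was below every Mll1+/- library, and J_7135 lay among the Mll1+/- libraries. The mean was 45.5 ± 23.2 CPM in the Mll1-/- libraries and 81.0 ± 9.11 CPM in the Mll1+/- libraries (SD, n = 4 each), with a log2 fold change of -0.83 (SE 0.30, unadjusted p = 0.0217, adjusted p = 0.481, edgeR), and the differences within the runs were -1.20 in run 1 and -0.68 in run 2. Without J_7135 the log2 fold change was -1.25 (unadjusted p = 4.13e-05, adjusted p = 0.0354, edgeR). This fit leaves out the only Mll1-/- library that overlapped the Mll1+/- libraries, and it called 45 genes, against 14 with all libraries. Leaving out any other single library gave an adjusted p of 0.474 to 0.694 (edgeR). The limma-voom fit with quality weights gave an adjusted p of 0.0617. The exons of *St3gal6* share 26.0% of their bases with *Dcbld2* on the opposite strand, and since strand was not used and reads on more than 1 gene were left out, reads there are uncounted.

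None of the other 3 tested sialyltransferases had an unadjusted p under 0.05. *St6galnac2* (ENSMUSG00000057286) had 92.5 CPM in J_7075, 98.2 in J_7096, 122 in J_7135 and 114 in J_7136 among the Mll1-/- libraries. *St6galnac2* stood at 116 CPM in J_7079, 110.3 in J_7100, 85.3 in J_7134 and 96.3 in J_7139 among the Mll1+/- libraries. The groups overlapped throughout, with a log2 fold change of 0.06 (SE 0.14, unadjusted p = 0.673, adjusted p = 0.931, edgeR). A second Ensembl identifier of the same symbol had 1 to 13 counts per library and was not added. *St3gal1*, which sialylates core 1, was at 3.01 to 11.6 CPM in the Mll1-/- libraries and 3.29 to 6.34 CPM in the Mll1+/- libraries (log2 fold change 0.27), and *St3gal4* at 0 to 2.84 CPM in the Mll1-/- libraries and 2.49 to 3.05 CPM in the Mll1+/- libraries (-0.80), with 0 counts in J_7135. *St6galnac1*, the enzyme of sialyl-Tn, had 26 counts in all 8 libraries, *St6galnac4* had 47 and *St6galnac6* had 52, and these 3 were not tested.

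The 11 initiating enzymes held no member with an unadjusted p under 0.05, and the log2 fold changes of the 9 tested ran from -0.53 to 0.67. *Galnt4*, the highest per kilobase of the group in Mll1+/-, had 59.8 CPM in J_7075, 52.9 in J_7096, 56.7 in J_7135 and 36.4 in J_7136 among the Mll1-/- libraries. *Galnt4* stood at 82.2 CPM in J_7079, 97.8 in J_7100, 44.3 in J_7134 and 74.1 in J_7139 among the Mll1+/- libraries. J_7134 was the only Mll1+/- library below the highest Mll1-/- value, and the log2 fold change of -0.53 (SE 0.25, unadjusted p = 0.0611, adjusted p = 0.565, edgeR) did not pass. *Galnt7*, which prefers peptides that already carry GalNAc, was at 55.2 to 116 CPM in the Mll1-/- libraries and 48.4 to 72.2 CPM in the Mll1+/- libraries (log2 fold change 0.51, unadjusted p = 0.0579, adjusted p = 0.562, edgeR). *Galnt6* was at 13.3 to 29.6 CPM in the Mll1-/- libraries and 9.17 to 15.7 CPM in the Mll1+/- libraries (log2 fold change 0.67, unadjusted p = 0.0539, adjusted p = 0.557, edgeR). *Galnt1* (0.01), *Galnt3* (0.09), *Galnt5* (0.46), *Galnt10* (0.18), *Galnt11* (-0.15) and *Galnt12* (-0.19) had the log2 fold changes given beside them and overlapped between the genotypes. *Galnt12* stood at 25.2 to 27.4 CPM in the Mll1-/- libraries and 18.3 to 42.9 CPM in the Mll1+/- libraries, so its Mll1-/- values were close together while the Mll1+/- values were not. *Galnt18* had 1 count in all libraries. *Galnt2* had 5, but 90.0% of its exon bases are shared with other annotated genes, among them *Gm20388* on the same strand, which had 0 counts in every library, and reads on more than 1 gene were left out, so the low count of *Galnt2* does not measure its expression.

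*C1galt1*, the core 1 synthase, was at 41.6 to 93.6 CPM in the Mll1-/- libraries and 41.6 to 64.9 CPM in the Mll1+/- libraries (log2 fold change 0.35). *C1galt1c1* had 60.2 CPM in J_7075, 69.2 in J_7096, 27.3 in J_7135 and 34.9 in J_7136 among the Mll1-/- libraries. *C1galt1c1* stood at 56.5 CPM in J_7079, 46.5 in J_7100, 54.9 in J_7134 and 53.3 in J_7139 among the Mll1+/- libraries. The Mll1+/- libraries were close together, the Mll1-/- libraries of run 1 were above them and those of run 2 below them, and the log2 fold change of -0.14 (SE 0.28, unadjusted p = 0.627, adjusted p = 0.918, edgeR) did not pass. The differences within the runs were 0.33 in run 1 and -0.81 in run 2.

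In the capping group, *B4galnt2* had 48.8 CPM in J_7075, 41.9 in J_7096, 66.7 in J_7135 and 62.3 in J_7136 among the Mll1-/- libraries. *B4galnt2* stood at 72.2 CPM in J_7079, 49.6 in J_7100, 53.4 in J_7134 and 46.1 in J_7139 among the Mll1+/- libraries. The genotypes overlapped throughout, with a log2 fold change of -0.01 (SE 0.20, unadjusted p = 0.955, adjusted p = 0.992, edgeR). *Chst4*, a sulfotransferase that acts on N-acetylglucosamine, was at 0.767 to 5.71 CPM in the Mll1-/- libraries and 0.387 to 2.57 CPM in the Mll1+/- libraries (log2 fold change 1.26), and its difference within the runs was -0.60 in run 1 and 2.80 in run 2. *Fut4*, which makes the Lewis x antigen, was at 6.11 to 9.62 CPM in the Mll1-/- libraries and 6.52 to 13.3 CPM in the Mll1+/- libraries (-0.21), *Fut8*, which adds the core fucose of N-glycans and not of mucin chains, at 67.0 to 88.3 CPM in the Mll1-/- libraries and 42.1 to 84.2 CPM in the Mll1+/- libraries (0.28), and *Fut2*, the secretor enzyme, had 54 counts in all and was not tested.

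**Figure D3:**
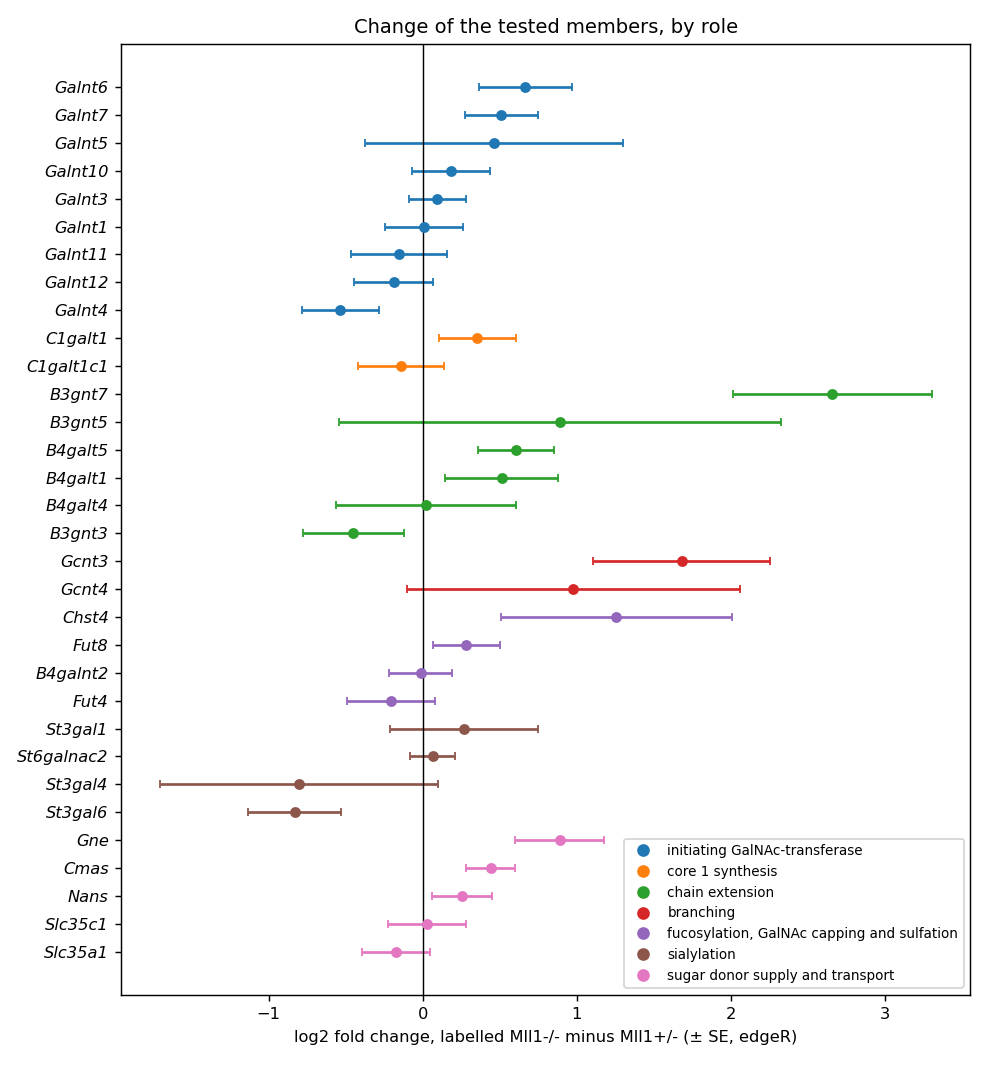
The log2 fold change, Mll1-/- minus Mll1+/-, of the 32 tested members is plotted with its standard error from edgeR, grouped and coloured by role. *B3gnt7* (2.66) and *Gcnt3* (1.68) lie farthest to the right and *St3gal6* (-0.83) farthest to the left; 22 of 32 are above 0, against 8350 of 16445 genes.

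Within the runs, 14 of the 32 tested members were higher in Mll1-/- in both runs, 4 were lower in both and 14 had opposite signs. The 2 runs gave the same sign for 56.2% of members and for 56.4% of all genes. The shares of all genes that were higher in both runs or lower in both were not counted, so the split of 14 and 4 has no background.

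**Figure D4:**
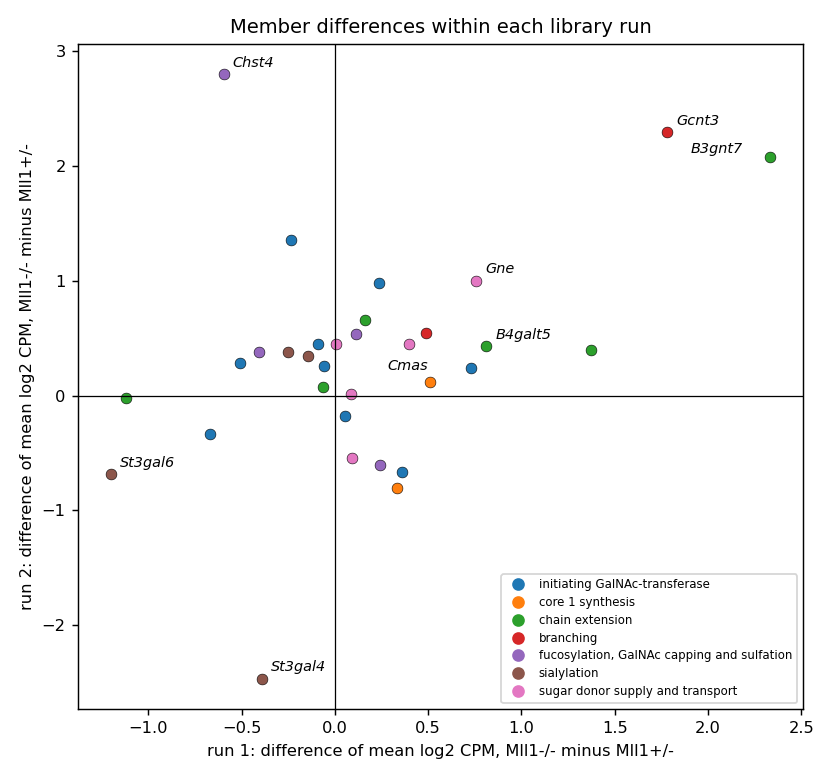
Each point is a tested member, with the difference of mean log2 CPM (Mll1-/- minus Mll1+/-, 2 libraries of each genotype) in run 1 on the horizontal axis and in run 2 on the vertical axis, coloured by role. *Gcnt3*, *B3gnt7*, *Gne*, *B4galt5* and *Cmas* lie in the upper right and *St3gal6* in the lower left, while *Chst4* has opposite signs in the 2 runs.

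Markers of differentiated cell types are given beside these members, and their part in the values was not tested. No marker of any list passed the adjustment. Of 11 goblet markers tested, 6 had an unadjusted p under 0.05 with a higher level in Mll1-/- and 1 with a lower level, against 9.15% of all genes in either direction, and their median log2 fold change was 1.09. Of 8 Paneth markers, 1 was higher and 4 were lower at that p (median -0.87), of 6 tested enterocyte markers 4 were lower (median -1.36), and of 5 tested enteroendocrine markers 2 were lower (median -2.65). The summed level of the goblet markers was 721 to 1345 CPM in the Mll1-/- libraries and 648 to 867 CPM in the Mll1+/- libraries, and these ranges overlap. *Muc2*, the gel-forming mucin that carries these chains, had 25.9 CPM in J_7075, 25.4 in J_7096, 81.8 in J_7135 and 31.8 in J_7136 among the Mll1-/- libraries. *Muc2* stood at 14.7 CPM in J_7079, 8.51 in J_7100, 12.2 in J_7134 and 7.62 in J_7139 among the Mll1+/- libraries. The groups did not overlap and J_7135 was the highest, with a log2 fold change of 1.94 (SE 0.43, unadjusted p = 0.00123, adjusted p = 0.202, edgeR). *Spdef* was at 4.11 to 15.1 CPM in the Mll1-/- libraries and 0.646 to 1.91 CPM in the Mll1+/- libraries, *Atoh1* at 6.02 to 39.3 CPM in the Mll1-/- libraries and 0.722 to 5.92 CPM in the Mll1+/- libraries and *Zg16*, the marker that was lower, at 0 to 2.95 CPM in the Mll1-/- libraries and 2.39 to 37.5 CPM in the Mll1+/- libraries. The summed markers of Paneth cells were 1559 to 5054 CPM in Mll1-/- and 3106 to 4846 CPM in Mll1+/-, those of enterocytes 380 to 671 and 605 to 699.9, those of enteroendocrine cells 5.25 to 9.95 and 11.2 to 76.2, those of tuft cells 3.02 to 9.73 and 2.51 to 3.37, and those of immune cells 0.325 to 4.23 and 0.882 to 1.44. No listed marker was at 0 in all libraries. The summed stromal and endothelial markers were 50.1 to 121 CPM in Mll1-/- and 6.07 to 11.95 CPM in Mll1+/-, and without *Vim* they were 5.84 to 8.14 and 4.64 to 7.06 CPM.

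The rest of the pathway, taken from lists by function, held 91 tested genes. Of these, 4 had an unadjusted p under 0.05, against 9.15% of all genes tested, and 0 were called, against 0.0851%. None of 18 tested other O-glycan transferases and none of 6 sialidases and sialate O-acetylation genes was among them. The other sugar donor genes held 2 of them out of 25 tested, among them *Gmds*, the first enzyme of GDP-fucose synthesis. *Gmds* had 173 CPM in J_7075, 150.0 in J_7096, 168 in J_7135 and 139.6 in J_7136 among the Mll1-/- libraries. *Gmds* stood at 102 CPM in J_7079, 108 in J_7100, 119 in J_7134 and 136 in J_7139 among the Mll1+/- libraries. The groups did not overlap, as in 6.28% of all genes tested, and the log2 fold change was 0.44 (SE 0.13, unadjusted p = 0.0079, adjusted p = 0.371, edgeR). The mucin substrates held *Muc2* alone, out of 6 tested, and *Muc13*, a membrane mucin, was at 387 to 634 CPM in the Mll1-/- libraries and 487 to 629.9 CPM in the Mll1+/- libraries (log2 fold change -0.24). Of 36 tested N-glycosylation genes, *Alg2*, an early mannosyltransferase, reached an unadjusted p under 0.05 in the lower direction (-0.91), and the median log2 fold change was -0.02 against 0.16 in the other O-glycan transferases and 0.11 in the other sugar donor genes.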

How the data were processed

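Read counts per gene were used from 8 Smart-seq2 libraries of sorted mouse cells, which carry no molecular identifiers, so that floors cover counting error only. Alignment to mm10 with GSNAP and counting of uniquely mapped reads on Ensembl genes with featureCounts 1.6.3 were done by the authors, and the deposited counts are not normalized. The deposited signal table holds the same counts divided by 1 size factor per library, and it was used for symbols and coordinates. No column of the authors' own comparisons was used. Members and lists were chosen with earlier results of these data known. Low genes were removed with edgeR's filterByExpr (minimum count 10, minimum total 15), TMM factors were applied, and genotypes were compared with a robust quasi-likelihood fit in edgeR 4.0.16 (R 4.3.3) with genotype as the only term; adjusted p under 0.1 was called. Standard errors come from the fold change and its F statistic. Depth was 14468751 to 16847793 counts, with a common biological coefficient of variation of 0.435. The replicate is the mouse. Full values are given for members with an unadjusted p under 0.05 or without overlap, and for the member with the highest level per length in each role. Of other lists, up to 4 genes with an unadjusted p under 0.05 and *Muc2* are given, and *Muc13*, *Olfm4*, *Spdef*, *Atoh1*, *Zg16*, *Vim* and *Gm20388* were named after their values were seen. In these lists, 1 gene stayed in the counts and is not reported here. Gene overlaps use GENCODE exons of GRCm38, close to the release counted. Alternatives were other scalings, filters and tests (DESeq2 1.42.0, limma 3.58.1), a term for the library run, a covariate of Xist against Y-linked counts, and each library left out. The fits were tested on simulated data. Figures were drawn with matplotlib 3.10.9.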

Additional observations from a re-analysis of the deposited data

Results flagged for a closer look

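In the Mll1+/- libraries, *Galnt10*, an initiating GalNAc-transferase, was at 7.17 CPM in J_7139 and at 10.6 to 11.1 CPM in the other 3, a gap of 0.863 of the range of the group, which is past Dixon's critical value for 4 samples. It was 1 of 64 groups of 4 libraries checked, or 1.56%, where chance marks about 5% of groups.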

How the results depend on the processing

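The count of genes called was 14 in the fit reported and with DESeq2 size factors. It was 8 with upper-quartile scaling, 406 with the DESeq2 Wald test, 103 with limma-voom, 47 without a filter, 34 with at least 10 counts in every library, and 0 for genes of the signal table, with the run as a term or with the Xist and Y-linked covariate, where 2292, 1642 and 1610 genes had an unadjusted p under 0.05. Leaving out 1 library gave 0 to 45, with 45 without J_7135, 2 without J_7075 and 0 without each other library (1189 to 1847 genes at an unadjusted p under 0.05). Members called were 1 with the DESeq2 Wald test, 1 with limma-voom and 0 to 1 with 1 library left out, the 1 being *St3gal6* without J_7135. Members with an unadjusted p under 0.05 were 9 of 32 with the DESeq2 Wald test (11.2% of all genes) and 9 of 32 with limma-voom (10.6%). They were 6 of 32 with DESeq2 size factors (9.11%) and 7 of 32 with upper-quartile scaling (9.01%). Other filters gave 10 of 39 without a filter (8.39%), 6 of 25 with at least 10 counts in every library (10.7%) and 7 of 37 for genes of the signal table (8.99%). The count was 7 of 32 with the run as a term (9.98%), 5 of 32 with the Xist and Y-linked covariate (9.79%) and 5 to 8 with 1 library left out (6.96 to 10.9%). Members without overlap were 4 to 8 with 1 library left out, beside 9.08 to 10.9% of all genes, and the 8 without J_7135 stand beside 9.86%. With all libraries the share of all genes was 6.28%. In the other pathway lists, the count of 4 of 91 became 7 of 91 with the DESeq2 Wald test (11.2% of all genes), 14 of 134 without a filter (8.39%), 9 of 115 for genes of the signal table (8.99%) and 7 of 91 with the run as a term (9.98%). With 1 library left out it ran from 2 of 92 without J_7139 (7.25% of all genes) to 11 of 94 without J_7096 (10.9%). The cause of these shifts was not tested. The 6 members with an unadjusted p under 0.05 kept their direction in every alternative that could fit them; *B3gnt7* ran from 2.37 to 3.12, *Gcnt3* from 1.35 to 2.24, *B4galt5* from 0.46 to 0.71, *Cmas* from 0.29 to 0.52, *Gne* from 0.72 to 1.08 and *St3gal6* from -1.25 to -0.66. The unadjusted p of *B4galt5*, *Cmas* and *St3gal6* reached 0.0894, 0.0593 and 0.058 in at least 1 alternative. *B3gnt7* and *Gcnt3* have no value with at least 10 counts in every library. The median log2 fold change of members ran from 0.06 (at least 10 counts in every library) to 0.30 (without J_7100). No paired analysis was possible because no mouse number is shared between the genotypes. The 7 members below the count filter have values only in fits with a looser filter.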

Other observations

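Library J_7135, labelled Mll1-/-, held the highest level of 10 of the 32 tested members, or 31.2%, where it held the highest level of 24.4% of all genes tested. These were *Galnt1*, *Galnt5*, *Galnt6*, *Galnt10*, *B3gnt7*, *B4galt1*, *St3gal1*, *St6galnac2*, *Nans* and *Cmas*. It held the lowest level of 5 members, or 15.6%, against 25.7% of all genes. In J_7134 and J_7139, both Mll1+/-, 7 members each were at their lowest, or 21.9%, against 11.9% and 10.9% of all genes.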
